A study of Homo sapiens with 5 samples.

Results

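The genes described here are the ERBB receptors and the ligands of the epidermal growth factor (EGF) family, measured in PC-3, a human prostate cancer line derived from a bone metastasis that grows without androgen. The 10 genes are the receptors EGFR, ERBB2, ERBB3 and ERBB4 and the ligands AREG, EREG, HBEGF, TGFA, BTC and NRG1. They were taken as a named list, with every probe set that the platform annotation assigns to 1 of these symbols alone. A probe set is a group of array probes that reports 1 transcript or several related ones. That gave 38 probe sets of 9 genes, out of 41097 such probe sets of 19775 genes in the series. AREG had no probe set under that rule in the annotation used here and was not analysed here. The series holds 5 Affymetrix arrays of total RNA from untreated PC-3 cells. Of these, 2 arrays carry cells with different short hairpin RNAs labelled as directed at the pseudokinase gene TRIB1 (shTRIB1-1 and shTRIB1-2), and 1 carries cells with a control hairpin to GFP (shGFP). A further array holds PC-3 from spheroids, in which cells grow as clusters, and the last holds PC-3 from normal 2D culture, both without a labelled hairpin. The labels describe growth in dishes to near confluence for all arrays, the spheroid one included. How spheroids were formed, and whether the hairpin lines were clones or pools, the sources used here do not say.

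ERBB receptors are receptor tyrosine kinases that signal as pairs. EGFR binds AREG, EREG, HBEGF, TGFA and BTC, of which EREG, HBEGF and BTC also bind ERBB4, while neuregulins such as NRG1 bind ERBB3 and ERBB4. ERBB2 has no known ligand of its own, and ERBB3 has very weak kinase activity, so both depend on a partner. The ligands are made as membrane proteins, and ADAM-type proteases cut them free. Activated receptors feed the RAS to ERK cascade and the PI3K to AKT branch, and in prostate cancer the family has been linked to growth when androgen signalling is low.

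Levels are log2 of the intensities that the authors obtained with RMA, a method that corrects background, equalises the distributions of the arrays and summarises probes. A level of 6 was used as a lower limit for comparisons, and a gene with several probe sets was read from the one brightest on average over the 5 arrays. That limit is not a detection call. The probe set of the prostate antigen KLK3, for example, stood at 6.90 on all 5 arrays. Levels of different probe sets are not comparable with each other, so only arrays were compared. TRIB1 itself was at 11.91 (labelled shTRIB1-1) and 11.76 (labelled shTRIB1-2), against 11.97 on the shGFP array, and at 11.23 in spheroid against 11.04 in 2D. Its signal was thus not clearly lower on the labelled arrays, and directions for them below are those of the labels. All 6 PC-3 markers (the keratins KRT8, KRT18 and KRT19, EPCAM, CDH1 and VIM) were at 9.39 or more on every array. Of 6 markers of blood, endothelial and fibroblast cells, 5 were below 6 on all arrays, VWF and PTPRC among them. The exception was PECAM1, an endothelial adhesion protein, at 9.53 in spheroid and 7.57 in 2D. PECAM1 made up most of the summed level of the list in spheroid (9.77) and 2D (8.31). On the hairpin arrays the summed level was 7.47 to 7.86, with PECAM1 at 5.70 to 6.62. The 5′ to 3′ ratio of the actin control, a measure of how complete the labelled RNA is, was 0.436 to 0.445 on the 3 hairpin arrays, 0.131 on the spheroid array and 0.184 on the 2D array. With 1 array for spheroid, 2D and shGFP each, differences between these carry no replicate check. Each TRIB1 hairpin also has 1 array, and no label says whether the hairpin lines were handled together or separately. Fewer cells that express a gene and less RNA per cell cannot be told apart in such bulk samples.

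The first comparison set spheroid culture against normal 2D culture. The probe set of epiregulin (EREG) was 3.65-fold higher in spheroid, a size that is uncertain because its 2D level lay below the limit of 6. The leading probe set of the receptor EGFR was 2.09-fold lower, while ERBB2, ERBB3, HBEGF, TGFA and BTC differed by less than 2-fold. ERBB4 and NRG1 were below 6 on both arrays. Of the 9 genes measured, 7 entered the comparison, EREG only through its spheroid value. Among them 1 was at least 2-fold higher and 1 at least 2-fold lower. Over all 10570 genes compared, 5.05% were at least 2-fold higher and 5.23% at least 2-fold lower, and no test was made with 1 array per condition. The median difference of the 7 genes was -0.01 on the log2 scale, and that of all genes compared was -0.0083.

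EREG, a ligand of EGFR and ERBB4, was at a level of 6.75 in spheroid and 4.88 in 2D. The hairpin arrays held 5.31 (labelled shTRIB1-1), 5.07 (labelled shTRIB1-2) and 5.39 (shGFP). Spheroid was therefore the array on which EREG stood out, and the other 4 were all below 6. As linear intensities, the values were 108 in spheroid and 29.5 in 2D. The log2 difference was 1.87, or 1.44 with 16 added to the intensities before log2, since the 2D value is low. The second EREG probe set stood near 4.5 on all arrays and gave a difference of 0.00. The PECAM1 level and the actin ratio named above moved with the same pair of arrays, and their part in the EREG result was not tested. On chromosome 4 the RefSeq gene table gives the gene order EPGN, EREG, AREG, BTC. BTC did not share the EREG difference, at -0.27 for its leading probe set.

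By leading probe sets, 3 genes differed at least 2-fold in a comparison made here. These were EREG and EGFR for spheroid minus 2D and HBEGF for shGFP minus 2D. Their upstream windows are shown so that base composition and core motifs can be compared. Each is the 250 bases before the annotated start in RefSeq, GRCh38.p14, read 5′ to 3′ on the gene's strand. EREG is at chr4:74364895-74365144 on the + strand, EGFR at chr7:55018767-55019016 on the + strand and HBEGF at chr5:140346604-140346853 on the - strand. Capitals mark matches, on either strand, to a TATA box (TATAAA) or a GC box (GGGCGG).
EREG: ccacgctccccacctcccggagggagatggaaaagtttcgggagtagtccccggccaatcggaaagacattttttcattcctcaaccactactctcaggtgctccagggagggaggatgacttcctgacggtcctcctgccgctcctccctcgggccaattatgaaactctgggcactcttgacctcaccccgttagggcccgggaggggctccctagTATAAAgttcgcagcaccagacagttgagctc
EGFR: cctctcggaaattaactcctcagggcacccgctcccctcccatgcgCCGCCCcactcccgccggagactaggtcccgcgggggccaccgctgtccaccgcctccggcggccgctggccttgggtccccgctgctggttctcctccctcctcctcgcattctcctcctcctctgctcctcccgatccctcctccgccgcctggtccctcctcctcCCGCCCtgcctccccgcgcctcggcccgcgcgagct
HBEGF: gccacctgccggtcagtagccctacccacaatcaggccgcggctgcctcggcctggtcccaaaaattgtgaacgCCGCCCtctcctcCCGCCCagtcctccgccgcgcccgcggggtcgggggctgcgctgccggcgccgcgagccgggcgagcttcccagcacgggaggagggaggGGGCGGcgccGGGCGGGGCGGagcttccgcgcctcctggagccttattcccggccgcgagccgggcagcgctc
The EREG window held 1 TATA box, 32 bases before the start, and no GC box. The EGFR window held 2 GC boxes and the HBEGF window 5, the last pair of which overlap, and neither held a TATA box. None of the 3 windows held an AP-1 motif (TGANTCA) or a full CRE (TGACGTCA). Of 15842 windows of protein-coding genes, 9.23% held the TATA letters, 56.0% the GC box, 5.04% the AP-1 motif and 2.32% the CRE. The GC content was 58.0% for EREG, 73.6% for EGFR and 76.4% for HBEGF, against a median of 62.4% over all these windows. These matches describe the letters alone.

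EGFR, the receptor of most of these ligands, was at 8.13 in spheroid and 9.19 in 2D by its leading probe set (224999_at). The hairpin arrays held 9.30 (labelled shTRIB1-1), 9.88 (labelled shTRIB1-2) and 9.91 (shGFP). The spheroid value was the lowest of the 5. The difference between spheroid and 2D was -1.06, and 502 of 10570 genes had a lower one. All 9 EGFR probe sets were lower in spheroid, but by different amounts. The probe sets 201983_s_at and 201984_s_at, also well above 6, differed by -0.63 and -0.28, that is by less than 2-fold. The median over the 9 probe sets, 5 of which stayed below 6 on every array, was -0.32. The epithelial keratins were lower in spheroid as well, KRT8 by -0.78, KRT18 by -0.57 and KRT19 by -0.79, with a median of -0.47 over the 6 PC-3 markers. Whether these share a cause with EGFR was not tested.

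**Figure D1:**
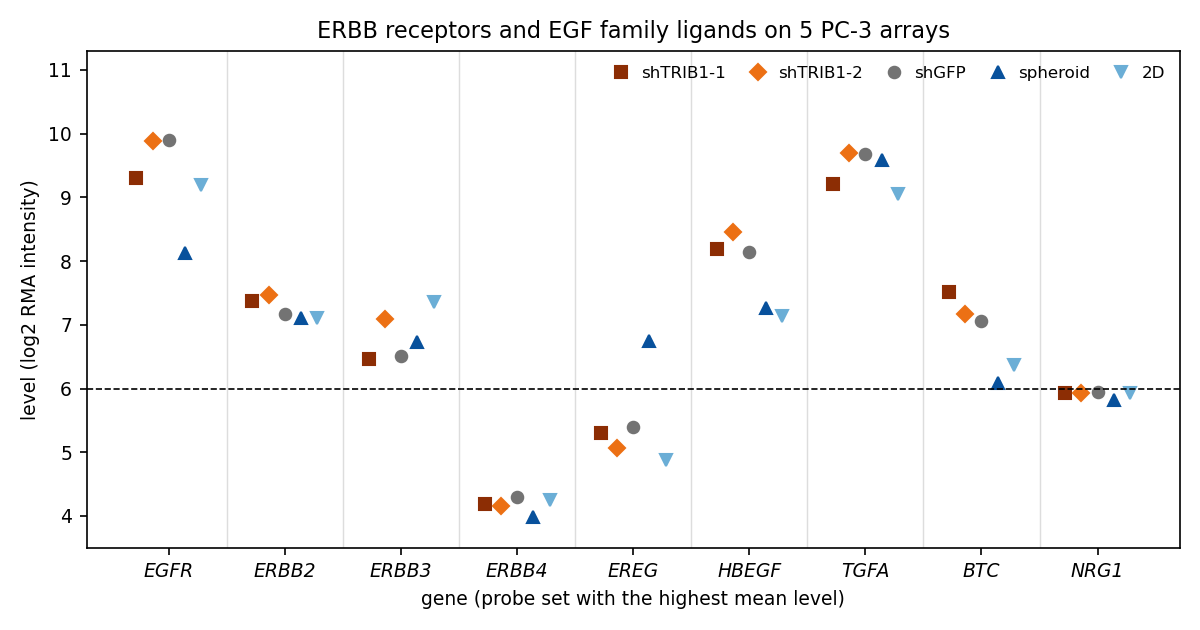
Levels (log2 RMA intensity, vertical axis) of the 9 measured receptor and ligand genes (horizontal axis) on the 5 arrays, 1 symbol per array, for the probe set with the highest mean level. The dashed line marks a level of 6; the spheroid array is highest for EREG (6.75) and lowest for EGFR (8.13), and HBEGF and BTC are higher on the 3 hairpin arrays than on the spheroid and 2D arrays.

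The other receptors differed less. ERBB3, which relies on its partners for phosphorylation, was at 6.72 in spheroid and 7.35 in 2D, a difference of -0.63. The hairpin arrays held 6.46 (labelled shTRIB1-1), 7.09 (labelled shTRIB1-2) and 6.51 (shGFP), so that 2D held its highest value. A dimmer ERBB3 probe set (202454_s_at), below 6 throughout, was at 5.18 in spheroid and 5.94 in 2D and was likewise highest in 2D. ERBB2, the partner without a ligand, was at 7.10 in spheroid and 7.11 in 2D. Over the 5 arrays its range was 0.37, against 1.78 for EGFR and 0.89 for ERBB3. The 4 probe sets of ERBB4 lay between 2.98 and 4.30 on all arrays, and the 6 probe sets of NRG1, a ligand of ERBB3 and ERBB4, between 2.56 and 5.94. Neither gene was compared further.

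TGFA, a high-affinity ligand of EGFR, was at 9.59 in spheroid and 9.05 in 2D, a difference of 0.54. The 2D array held the lowest of its 5 values, which otherwise ran from 9.21 for shTRIB1-1 to 9.70 for shTRIB1-2. A second TGFA probe set (205015_s_at) stayed between 6.03 and 6.21 on all arrays and gave -0.09 for spheroid minus 2D. The remaining one (211258_s_at), below 6 throughout, gave 0.33, so the probe sets did not all share a direction. HBEGF, the heparin-binding ligand, was at 7.27 in spheroid and 7.13 in 2D, a difference of 0.14. BTC (betacellulin) was at 6.09 in spheroid and 6.36 in 2D, a difference of -0.27, and its other probe set gave -0.24. Other ligands of the family were EGF, NRG2, NRG3 and NRG4, and all 4 stayed below 6 on every array, EGF at 3.48 in spheroid and 3.05 in 2D. EPGN was not analysed here.

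Both labelled TRIB1 hairpins were set against the control hairpin. None of the 6 receptors and ligands above the level limit differed 2-fold from shGFP on either labelled array by its leading probe set, and limma called none. Over all 10522 genes compared, 3.86% differed at least 2-fold either way on the array labelled shTRIB1-1 and 2.16% on that labelled shTRIB1-2. On both labelled arrays, 0.361% were higher by that much and 0.0855% lower. Limma, adjusted by Benjamini-Hochberg at 0.05, called 0% of these genes. Before adjustment 356 genes had p below 0.05, and 0 of the 6 did. The fit has 1 residual degree of freedom, so a miss does not show that the arrays were alike. The median of the 6 genes was -0.0025 for the hairpin labelled shTRIB1-1 and 0.20 for that labelled shTRIB1-2, against -0.027 and -0.0095 for all genes compared.

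ERBB2 was at 7.37 (labelled shTRIB1-1) and 7.47 (labelled shTRIB1-2), against 7.16 on the shGFP array. Both labelled arrays were thus slightly above shGFP, by 0.26 ± 0.07 on the log2 scale (SD, n = 2), and above spheroid and 2D as well, with a limma adjusted p of 0.951. A dimmer ERBB2 probe set (234354_x_at) was at 5.33 and 3.92 with the hairpins labelled shTRIB1-1 and shTRIB1-2 and at 3.92 on shGFP, so its one high value lay below the level limit. HBEGF was at 8.18 and 8.46, against 8.14 on shGFP, and differed by 0.18 ± 0.19 (SD, n = 2). BTC was at 7.52 and 7.16, against 7.07 on shGFP, a difference of 0.28 ± 0.25 (SD, n = 2). By their leading probe sets these 3 genes were above shGFP with each hairpin. Dimmer probe sets gave -0.13 for HBEGF (244857_at) with shTRIB1-1 and -0.14 for BTC (207326_at) with shTRIB1-2. Also, for HBEGF and BTC the spread between the hairpins was about as large as the mean difference. Each SD is that between the labelled arrays and leaves out the spread of the single shGFP array.

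For the other 3 genes the labelled arrays lay on opposite sides of shGFP or only 1 of them stood apart. EGFR differed by -0.60 and -0.02 with the hairpins labelled shTRIB1-1 and shTRIB1-2, TGFA by -0.47 and 0.03, and ERBB3 by -0.05 and 0.58. For EGFR the probe sets on the array labelled shTRIB1-1 contradicted each other. Against -0.60 for 224999_at, the probe set 201984_s_at gave 0.80 and 201983_s_at gave 0.08. That pair of opposite values also sets how the hairpins compare: shTRIB1-1 minus shTRIB1-2 was -0.58 by 224999_at and 1.12 by 201984_s_at. No direction can be given for EGFR messenger RNA on this array. EREG stayed below 6 on all 3 hairpin arrays and was not compared.

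**Figure D2:**
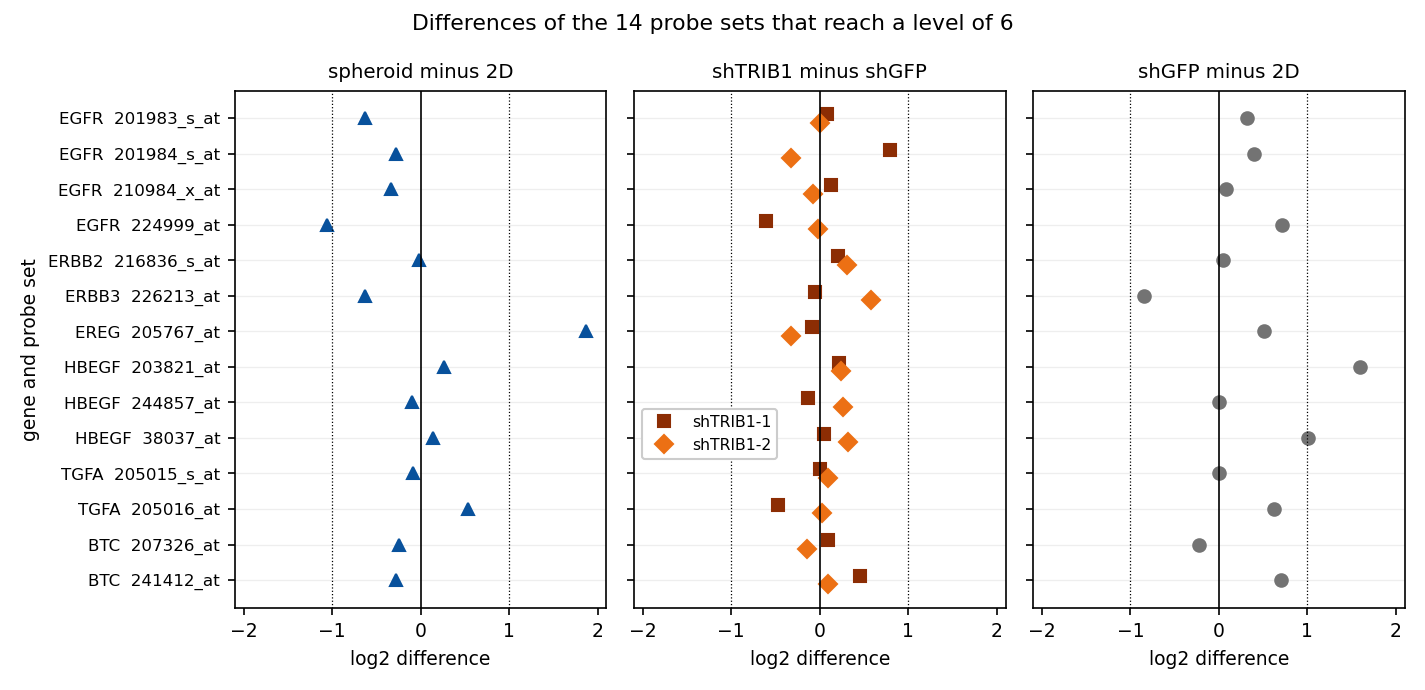
Log2 differences (horizontal axes) of the 14 receptor and ligand probe sets that reach a level of 6 on at least 1 array, for spheroid minus 2D, each labelled hairpin array minus shGFP, and shGFP minus 2D. Dotted lines mark 2-fold; EREG lies at 1.87 and EGFR 224999_at at -1.06 for spheroid, and 201984_s_at of EGFR at 0.80 is opposite to 224999_at at -0.60 for the array labelled shTRIB1-1.

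The shGFP array was set against the 2D array to see how far control cultures differ. HBEGF was 2.01-fold higher on the shGFP array and no other receptor or ligand of the 6 compared reached 2-fold. Over 10450 genes, 2.13% were at least 2-fold higher and 2.11% at least 2-fold lower. The hairpin vector, the culture and the array set cannot be told apart in this comparison. The HBEGF probe set 38037_at was at 8.14 on shGFP and 7.13 in 2D, and 203821_at at 8.09 and 6.50, differences of 1.01 and 1.59. Both probe sets placed all 3 hairpin arrays above both arrays without a hairpin, 38037_at at 8.14 to 8.46 against 7.13 to 7.27 and 203821_at at 8.09 to 8.33 against 6.50 to 6.76. A further one, 244857_at, gave 0.00 at a level near 5.8.

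BTC was also above both non-hairpin arrays on every hairpin array, with a difference of 0.70 between shGFP and 2D, although its other probe set gave -0.22. By leading probe sets EGFR differed by 0.72 and TGFA by 0.63. The 4 EGFR probe sets that reach 6 ran from 0.08 to 0.72, with 201983_s_at at 0.32 and 201984_s_at at 0.39. The TGFA probe set 205015_s_at gave 0.00. ERBB3 went the other way, at -0.84. The median over the 6 genes was 0.66, whereas that of all 10450 genes was 0.00. Both medians rest on 1 leading probe set per gene.

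Among 16 genes listed as ERK-driven output, 10 were higher on shGFP than in 2D and 6 lower. Of all 10450 genes compared, 48.9% were higher on shGFP. FOS, EGR1 and DUSP5, picked after their values were seen, divided the arrays as HBEGF did, whereas PHLDA1 was at 10.97 on shGFP and 12.08 in 2D and divided them the other way. FOS, an AP-1 subunit, was at 9.22 on shGFP and 4.51 in 2D, and EGR1, a zinc finger transcription factor, was at 8.24 and 4.82. DUSP5, a nuclear ERK phosphatase, was at 10.76 on shGFP and 8.96 in 2D. These are differences of 4.71, 3.41 and 1.81, of which those of FOS and EGR1 are uncertain in size because their 2D levels lay below 6. EGR1 and FOS varied widely within the hairpin arrays too. FOS was at 7.82 (labelled shTRIB1-1) and 10.12 (labelled shTRIB1-2), whereas HBEGF stayed within 0.32 over the 3 hairpin arrays. In spheroid, FOS was at 4.61, EGR1 at 4.94 and HBEGF at 7.27, close to their 2D values. The actin ratio divides the arrays in the same way, and so does the 5′ to 3′ ratio of the thr control, designed for a spiked-in RNA, at 0.217 to 0.269 on the hairpin arrays, 0.0913 in spheroid and 0.113 in 2D. The GAPDH ratio was 0.929 to 0.944 on the hairpin arrays, 0.763 in spheroid and 0.895 in 2D. Their part in these differences was not tested.

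**Figure D3:**
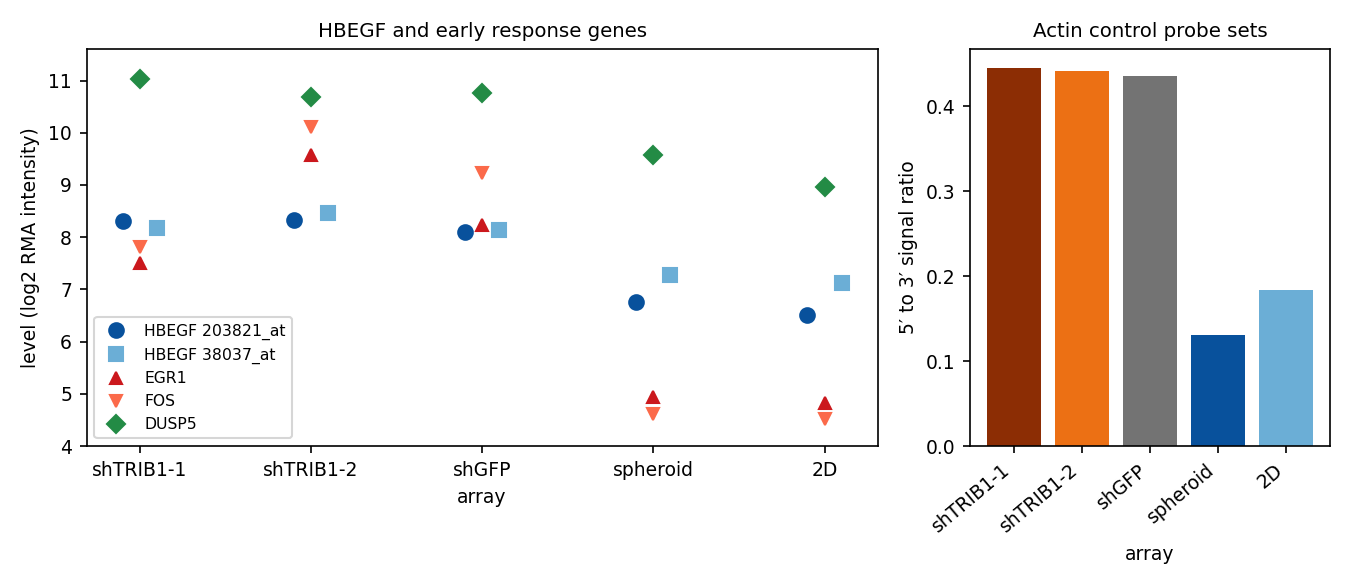
Left, levels (log2 RMA intensity) of 2 HBEGF probe sets and of EGR1, FOS and DUSP5 on each array; right, the 5′ to 3′ ratio of the actin control on these arrays, with bars from 0. HBEGF lies at 8.09 or above on the 3 hairpin arrays and at 7.27 or below on the spheroid and 2D arrays, and the actin ratio is 0.436 or more on the hairpin arrays and 0.184 or less on the spheroid and 2D arrays.

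The rest of the pathway was read from lists arranged by role. Of 10 genes that act in ligand shedding, 9 were compared between spheroid and 2D, with 0 at least 2-fold higher and 0 at least 2-fold lower. Their median was 0.28. The shares over all 10570 genes compared were 5.05% at least 2-fold higher and 5.23% at least 2-fold lower. ADAM17, the main sheddase of TGFA, AREG and HBEGF, was at 9.66 in spheroid and 8.86 in 2D, and all 4 other arrays lay between 8.80 and 8.86. Its difference of 0.80 was thus below 2-fold, although spheroid alone stood apart. RHBDF1, an inactive rhomboid that helps ADAM17 to mature, differed by 0.66 and ADAM19 by -0.67. For RHBDF1 the 2D array was the lowest, at 6.69, against 7.35 in spheroid and 7.26 to 7.61 on the hairpin arrays. ADAM19 was also lower on shGFP than in 2D, by -1.16, as the only gene of the list at 2-fold there. ADAM10, the main sheddase of BTC, was at 10.93 (labelled shTRIB1-1) and 10.74 (labelled shTRIB1-2) and at 10.18 on shGFP, a difference of 0.65 ± 0.14 (SD, n = 2). None of the 10 genes differed 2-fold on both labelled arrays. Among all 10522 genes compared there, 0.361% were at least 2-fold higher on both and 0.0855% at least 2-fold lower.

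Of 20 genes listed under ERBB receptor restraint and turnover, 18 were compared between spheroid and 2D. Of these, 1 was at least 2-fold higher and 1 at least 2-fold lower, and their median was 0.07. The shares over all 10570 genes compared were 5.05% higher and 5.23% lower. LRIG1, a membrane protein that binds ERBB receptors and promotes their degradation, was at 7.46 in spheroid and 5.35 in 2D, a difference of 2.11. It was at 6.17 (labelled shTRIB1-1) and 7.05 (labelled shTRIB1-2), against 5.67 on shGFP. Both labelled arrays were above shGFP, by 0.50 and 1.38, and only the second passed 2-fold. The values in 2D and on shGFP lie below 6, so the sizes rest on a signal near background. Its relative LRIG3 was at 4.98 in spheroid and 6.45 in 2D, a difference of -1.47, and 2D was the only array above 6.

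The inhibitor ERRFI1 (MIG6), which binds the EGFR kinase domain and is itself induced by EGFR signalling, differed by -0.76 between spheroid and 2D. It was at 11.81 (labelled shTRIB1-1) and 11.29 (labelled shTRIB1-2), against 12.33 on shGFP, which are differences of -0.52 and -1.04. RNF41 (NRDP1), a ubiquitin ligase for ERBB3, was at 6.23 and 6.04 on the labelled arrays and 7.14 on shGFP, differences of -0.91 and -1.10. The ubiquitin ligase CBLB was above its comparison array in both cases, by 0.74 in spheroid and by 0.62 ± 0.03 (SD, n = 2) on the labelled arrays. Of 17 genes of this list compared for the hairpins, 0 were at least 2-fold higher and 0 at least 2-fold lower on both arrays. The median of the 17 was -0.07. For all 10522 genes compared, those shares were 0.361% higher and 0.0855% lower. Between shGFP and 2D, ERRFI1 differed by 1.33 and LRIG3 by -1.47. CBLB differed by 0.65 between shGFP and 2D, about as much as in the other comparisons.

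Signal relays differed by less than 2-fold between spheroid and 2D. Of 19 adaptors and members of the RAS to ERK cascade, 13 had a probe set under the rule used here and 12 were compared. None reached 2-fold in spheroid or on both labelled arrays, and the medians were 0.04 and -0.00073. Over all genes compared, 5.05% were at least 2-fold higher in spheroid and 5.23% at least 2-fold lower. On both labelled arrays those shares were 0.361% and 0.0855%. The exchange factor SOS2 differed by 0.69 in spheroid and HRAS by -0.68. Of 15 genes of the PI3K to AKT branch, 11 were compared, with a median of 0.00 in spheroid and -0.13 on the labelled arrays. PIK3R3, a regulatory subunit of PI3K, was at 8.85 and 9.72 on the labelled arrays and 8.22 on shGFP, above it by 0.63 and 1.49. The kinase MTOR differed by -1.65 for the hairpin labelled shTRIB1-1 and by 0.02 for that labelled shTRIB1-2.

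Genes known as output of ERK signalling were mixed. Of 16, 14 were compared between spheroid and 2D, 7 higher and 7 lower, with a median of -0.03. Of all 10570 genes compared, 47.3% were higher, 5.05% at least 2-fold higher and 5.23% at least 2-fold lower. Among the 14, only DUSP6, a cytoplasmic ERK phosphatase, passed 2-fold, at 11.74 in spheroid and 10.39 in 2D, a difference of 1.35. The ERK feedback inhibitor SPRY2 differed by 0.88 and DUSP5 by 0.62, while the ETS factor ETV4 differed by -0.69. On the labelled arrays 16 were compared and none passed 2-fold on both, with a median of 0.07. Among all 10522 genes compared there, 0.361% were at least 2-fold higher on both and 0.0855% at least 2-fold lower. As for shGFP against 2D, 3 of 16 were at least 2-fold higher (FOS, EGR1 and DUSP5) and PHLDA1 was at least 2-fold lower, at -1.12. FOS and EGR1 entered that comparison only through the shGFP array, since their 2D levels lay below 6. The shares over all 10450 genes compared were 2.13% higher and 2.11% lower.

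**Figure D4:**
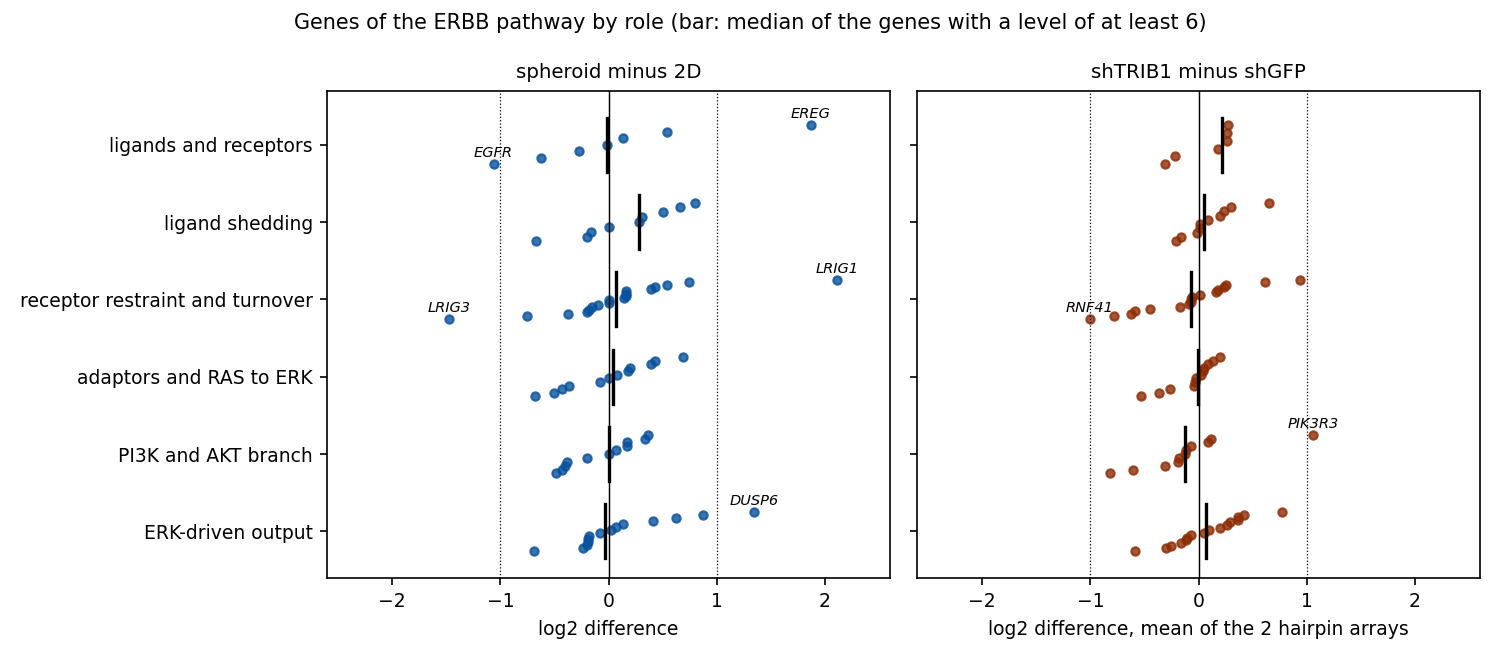
Log2 differences (horizontal axes) of genes of the ERBB pathway by role, for spheroid minus 2D and for the mean of the labelled hairpin arrays minus shGFP; each point is a gene, black bars are medians, dotted lines mark 2-fold, and genes beyond them are named. In spheroid the named genes are EREG, LRIG1 and DUSP6 on the higher side and EGFR and LRIG3 on the lower, and RNF41 and PIK3R3, named for the hairpins, pass 2-fold on the mean but not on both arrays.

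By leading probe sets, EREG and EGFR had the largest ranges over the 5 arrays, 1.87 and 1.78, that of EREG reaching down below the level of 6. Other probe sets of HBEGF (203821_at, 1.83) and ERBB2 (234354_x_at, 1.93, below 6 throughout) ranged as widely. Among 10843 genes at 6 or above on any array, those with levels that followed EREG most closely were MYOM1, CLGN and FA2H. The likeness is the root mean square difference of levels centred on their own mean over the 5 arrays, and it was 0.13, 0.13 and 0.16 on the log2 scale. CLGN, a chaperone of the endoplasmic reticulum best known from testis, was at 10.90 in spheroid and 9.06 in 2D. MYOM1 and FA2H were at 6.69 and 6.95 in spheroid, and below 6 on the other 4 arrays. For EGFR the closest were the keratin KRT8 and the nuclear envelope proteins SYNE1 and SYNE2, at 0.13, 0.15 and 0.15. KRT8 was at 9.39 in spheroid and 10.17 in 2D, and at 10.64 to 11.01 on the hairpin arrays. With 5 arrays, such likeness is a description of these arrays.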

How the data were processed

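The authors deposited 1 intensity per probe set and array, made with RMA per the submitters' processing notes. That these intensities are linear was read from the values, and the sources used here do not give the version or chip definition. Log2 was taken with no pseudocount. Of 54675 probe sets, 41097 carried 1 symbol in the platform annotation, and the Entrez identifiers of 41043 matched RefSeq (GRCh38.p14), which updated 0 symbols. A gene (19775 in all) was read from its brightest probe set by mean level, and entered a comparison at a level of at least 6 on any compared array. Groups came from sample titles. Spheroid minus 2D and shGFP minus 2D were differences without a test. The hairpin arrays were tested against shGFP with limma 3.58.1 (R 4.3.3, intensity trend, Benjamini-Hochberg over all genes), after a check on simulated data. Genes named from the pathway lists passed 2-fold in a comparison or were up to 4 examples by size. FOS, EGR1, PHLDA1, PECAM1 and the keratins were named after their values were seen. Members and lists were chosen with earlier results of these data known. Arrays have no sequencing depth, and their number limits the precision. Alternatives were the probe set rule, level filter, pseudocount, reference array, limma settings and leaving out each hairpin array.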

Additional observations from a re-analysis of the deposited data

How the results depend on the processing

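By their leading probe sets, the EREG and EGFR differences between spheroid and 2D were 1.44 to 1.87 and -1.42 to -1.02 over the alternatives. The medians of the differences over all their probe sets were below 2-fold, 0.93 for EREG and -0.32 for EGFR. At a level filter of 8 the count of genes at least 2-fold different was 1, since EREG no longer entered. With each gene read as the median of its probe sets it was 0, and both genes then also lay below the level limit. For shGFP minus 2D the count was 0 with that median and 0 with 16 added before log2, where HBEGF differed by 0.80 and 0.93. Against the mean of 2D and shGFP, HBEGF in spheroid turned to -0.37. TGFA in spheroid minus 2D was -0.09 as the median level of its probe sets, which is the value of 205015_s_at. The median of the differences of the TGFA probe sets was 0.33. For spheroid minus 2D, neither HBEGF nor TGFA was 2-fold in any setting. For the hairpins, the 2-fold count was 0 under all alternatives, leaving out either array included, and limma called 0 genes of the family in all 6 settings run, with a lowest adjusted p over all genes of 0.557 to 0.966. The direction of the mean turned under some alternatives for EGFR (-0.60 to 0.05), TGFA (-0.47 to 0.09) and ERBB3 (-0.16 to 0.58). HBEGF and BTC were 0.68 and 0.63 above the mean of shGFP and 2D. No paired analysis was possible because only the TRIB1 hairpins have more than 1 array.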
